A study of Arabidopsis thaliana with 30 samples.

Results

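A set of 9 members of the LATERAL ORGAN BOUNDARIES DOMAIN (LBD) family of Arabidopsis thaliana were followed in detached leaves given a mixture of plant hormones and a kinase inhibitor. They were found in the count table by locus identifier. The lateral root and callus class comprised LBD16 (AT2G42430), LBD17 (AT2G42440), LBD18 (AT2G45420), LBD29 (AT3G58190) and LBD33 (AT5G06080). The procambium class comprised LBD1 (AT1G07900), LBD3 (AT1G16530), LBD4 (AT1G31320) and LBD11 (AT2G28500). These were 9 of the 43 LBD loci and of the 38194 loci in the table.

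All samples were leaves 1 and 2 of Columbia-0 plants aged 10 d, detached, with several leaves pooled per sample. Both treatments shared a buffer with 0.22% MS salts, 5.0% glucose and 0.2% DMSO. Mock samples had this buffer alone. Stimulus samples also had 20 µM bikinin, a GSK3 kinase inhibitor that switches on brassinosteroid responses, 2,4-D (a synthetic auxin) at 2.5 µg/mL and kinetin (a cytokinin) at 0.5 µg/mL. Each treatment was sampled at 6, 7, 8, 9 and 10 h with 3 replicates, which gave 10 groups and 30 libraries.

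LBD proteins are plant-specific transcription factors with a conserved LOB domain. In roots, auxin releases the response factors ARF7 and ARF19 from repression by Aux/IAA proteins such as IAA14, and these factors switch on LBD16, LBD18 and LBD29, which start lateral root founder divisions; LBD18 and LBD33 act together on the cell cycle gene E2FA. When tissue explants are placed on auxin-rich medium, LBD16, LBD17, LBD18 and LBD29 drive callus formation by a route that resembles lateral root initiation. LBD1, LBD3, LBD4 and LBD11 belong instead to the vascular cambium, where LBD3 and LBD4 are early cytokinin-responsive genes of root secondary growth and LBD4 works with TMO6 and WOX14 in the procambium.

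Libraries held 14981271 to 22729166 counts. Replicate 3 of mock at 6 h and replicate 3 of mock at 7 h were identical at every locus, so 29 libraries were distinct, 14 of them mock, and this column was counted once in means. Which of both labels is right is not known; the column entered the fits under both, and it is the third mock value wherever 6 h libraries are listed. Replicate 3 differed from replicates 1 and 2 at several of the genes below, and such results are given for each set. The leaf label was checked against 5 mesophyll markers, summed at 6797 to 16280 CPM (counts scaled to a common library size) in mock and 4161 to 7794 CPM in stimulus. The 5 root markers summed to at most 0.423 CPM in mock, where 2 of them were at 0, and to at most 0.554 CPM in stimulus, where 1 was at 0. In whole leaves, more cells of a type and more RNA per cell cannot be told apart.

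In the lateral root and callus class, LBD17, LBD29 and LBD33 were almost silent. LBD33 had no count in any of the 29 distinct libraries, which allows up to 0.0117 CPM over the mock group and 0.00983 CPM over the stimulus group. LBD29 had 0 counts in mock and 1 count in stimulus, in replicate 2 at 10 h. LBD17 had 2 counts in mock, both in replicate 3 at 8 h, and 0 in stimulus. Thus 3 of the 5 genes, all of them drivers or partners in root initiation and callus formation, were at or near the limit of detection in both treatments. These limits cover counting error only.

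LBD18, an activator of cell wall loosening genes during lateral root emergence, was detected in most libraries at a few counts each. It summed to 47 counts in mock and 38 in stimulus. Its level was lowest at 0, median 0.162 and highest 0.455 CPM in mock, and lowest at 0, median 0.101 and highest 0.344 CPM in stimulus. The treatments overlapped, and stimulus was the lower of the same-numbered libraries in 9 of 15 pairs, of which 2 use the identical mock column, here and in all such counts. LBD18 did not reach the expression minimum for testing in the fit of all libraries. It passed on counts summed over the hours, at -0.66 ± 0.43 (edgeR adjusted p = 0.361), and with a minimum of 1 count, at -0.62 ± 0.51 (edgeR adjusted p = 0.407), and was not called. The ratio of summed counts, stimulus over mock, was 0.680, with a 95% counting interval of 0.432 to 1.07.

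LBD16, the best expressed of this class, is a direct ARF7 and ARF19 target in roots. In mock it was lowest at 0, median 0.825 and highest 1.52 CPM, and in stimulus lowest at 0.0428, median 1.59 and highest 2.69 CPM. The treatments overlapped over all libraries, and the replicate sets went different ways. In replicates 1 and 2 the level was 0.948 ± 0.262 CPM in mock (SD, n = 10) and 1.77 ± 0.387 CPM in stimulus (SD, n = 10), and stimulus was higher in 10 of 10 pairs. At 6 h its mock libraries had 0.822, 1.29 and 0.514 CPM and its stimulus libraries 1.72, 1.69 and 0.0595 CPM, so replicate 3 was the lowest in both treatments. In replicate 3 as a whole it was 0.292 ± 0.216 CPM in mock (SD, n = 4) and 0.0988 ± 0.0464 CPM in stimulus (SD, n = 5), from 19 and 9 counts, and stimulus was higher in 1 of 5 pairs. Over all libraries the average log2 fold change over the 5 times was 0.70 ± 0.50 (SE), with an edgeR adjusted p of 0.235, and it did not pass the threshold of 0.05. In replicates 1 and 2 alone it was 0.92 ± 0.17, with an edgeR adjusted p of 0.000104. In replicate 3 alone LBD16 fell below the expression minimum and was not tested.

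**Figure D1:**
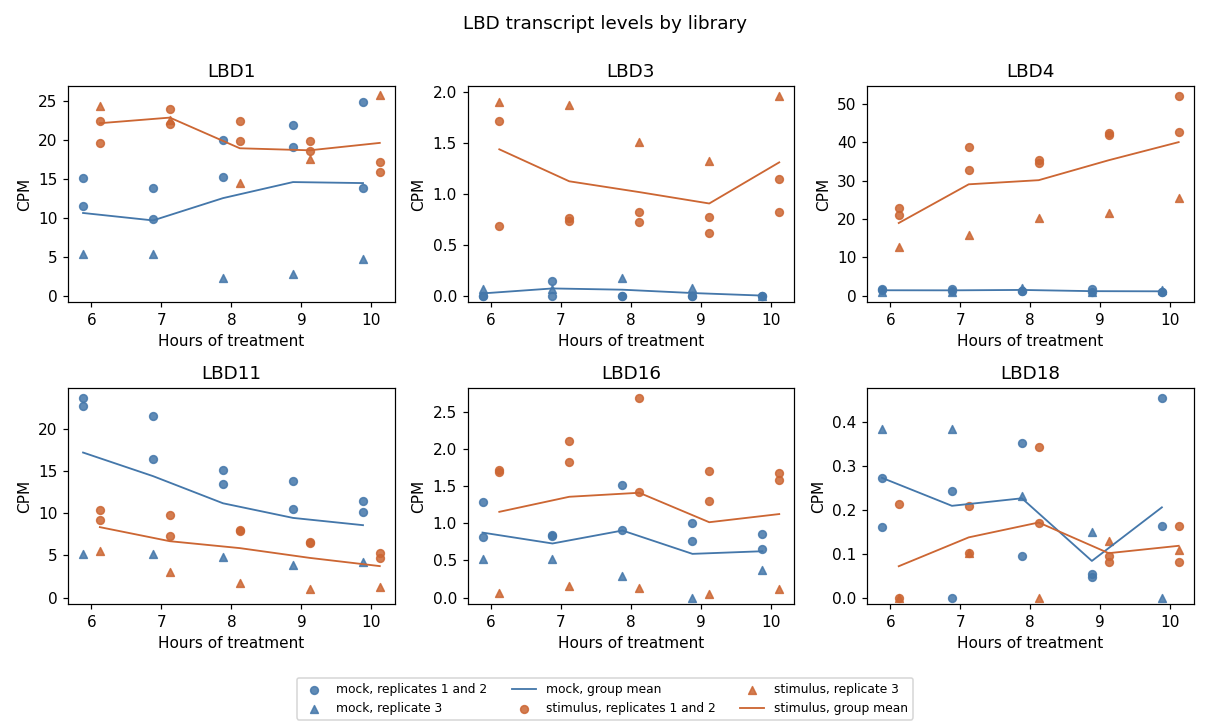
CPM of the 6 LBD genes with more than 2 counts in either treatment, with 1 point per library by hour (triangles are replicate 3, drawn at both 6 and 7 h for the identical mock columns) and lines through the group means. LBD4 and LBD3 were higher in every stimulus library than in every mock library, whereas LBD1, LBD11 and LBD16 overlapped between treatments.

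Of the procambium class LBD1, LBD11 and LBD4 were expressed in mock leaves, whereas LBD3 was nearly absent there. Among the members of this class, the stimulus raised LBD3 and LBD4 most. Bikinin, the auxin and kinetin were always given together. The part of each compound in this and the other changes was therefore not tested. LBD4 rose from 1.32 ± 0.362 CPM in mock (SD, n = 14) to 30.7 ± 11.6 CPM in stimulus (SD, n = 15). It was lowest at 0.854, median 1.28 and highest 2.02 CPM in mock, and lowest at 12.8, median 32.7 and highest 52.1 CPM in stimulus. The treatments did not overlap. The average log2 fold change was 4.51 ± 0.19, or 22.8-fold, with an edgeR adjusted p of 8.76e-15.

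LBD4, a procambium regulator, was already high at the first time sampled. At 6 h its 3 stimulus libraries had 22.9, 21.2 and 12.8 CPM and its mock libraries 1.64, 1.51 and 1.03 CPM. At 10 h the stimulus libraries had 52.1, 42.8 and 25.4 CPM and the mock libraries 1.03, 0.854 and 1.47 CPM. In each hour replicate 3 was the lowest of the stimulus libraries, while the mock libraries stayed within a narrow range. The log2 fold change was 3.75 ± 0.41 at 6 h, with an edgeR adjusted p of 2.80e-06, and 5.16 ± 0.43 at 10 h, with an edgeR adjusted p of 2.88e-08.

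LBD3, also known as ASL9 and a target of cytokinin signalling, went from near absence to low expression. In mock it had 8 counts in all, was at 0 in 10 of the 14 libraries and reached at most 0.173 CPM. In stimulus it had 342 counts and was lowest at 0.615, median 0.820 and highest 1.96 CPM, with counts in every library. The treatments did not overlap. In stimulus the 3 libraries had 1.72, 0.686 and 1.91 CPM at 6 h and 1.15, 0.820 and 1.96 CPM at 10 h, with replicate 3 the highest at every hour. The ratio of summed counts was 36.0, with a 95% counting interval of 18.1 to 84.0. At 10 h, where mock had 0 counts, it was at least 22.0-fold higher, with the floor of 3 counts taken over the group. The fitted average log2 fold change of 5.31 ± 0.48 had an edgeR adjusted p of 1.01e-08; with so few mock counts this value depends on the prior count, and LBD3 entered the test only through its stimulus libraries.

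LBD1, a cambium gene that responds later than LBD3 and LBD4, was the most highly expressed of the 9 genes in mock per length of transcript. It was lowest at 2.31, median 13.8 and highest 24.8 CPM in mock, and lowest at 14.5, median 19.9 and highest 25.7 CPM in stimulus. The stimulus libraries lay within a narrower range than the mock libraries, whose lowest values were all from replicate 3. In replicates 1 and 2 it had 16.5 ± 4.79 CPM in mock and 20.2 ± 2.54 CPM in stimulus (SD, n = 10 each), with overlap. In replicate 3 it had 3.78 ± 1.49 CPM in mock (SD, n = 4) and 20.9 ± 4.75 CPM in stimulus (SD, n = 5), with none. At 6 h the 3 mock libraries had 11.5, 15.1 and 5.33 CPM and the stimulus libraries 22.5, 19.6 and 24.4 CPM. At 10 h the mock libraries had 24.8, 13.8 and 4.76 CPM and the stimulus libraries 15.9, 17.2 and 25.7 CPM. Every stimulus library was above every mock library at 6 h, whereas at 10 h the ranges overlapped. The average log2 fold change was 0.73 ± 0.28, or 1.66-fold, with an edgeR adjusted p of 0.0276. The call was lost without the identical columns, with an edgeR adjusted p of 0.0730, and without the 6 h libraries, with an edgeR adjusted p of 0.103.

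LBD11, the partner of LBD1 in root secondary growth, went the other way. It was lowest at 3.91, median 12.5 and highest 23.7 CPM in mock, and lowest at 0.984, median 6.50 and highest 10.4 CPM in stimulus. Stimulus was lower in 14 of 15 same-numbered pairs, although the ranges overlapped, also within each replicate set. In replicates 1 and 2 alone it had 15.9 ± 5.07 CPM in mock and 7.55 ± 1.88 CPM in stimulus (SD, n = 10 each). At 6 h the 3 mock libraries had 23.7, 22.7 and 5.21 CPM and the stimulus libraries 9.23, 10.4 and 5.48 CPM. At 10 h the mock libraries had 11.4, 10.1 and 4.21 CPM and the stimulus libraries 5.25, 4.63 and 1.30 CPM. Both treatments were lower at 10 h than at 6 h in replicates 1 and 2. The average log2 fold change was -1.06 ± 0.33, or 2.08-fold lower, with an edgeR adjusted p of 0.00876. LBD11 was therefore the only one of the 4 procambium genes that fell.

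Of the 9 genes, 2 were called higher at every hour, LBD4 and LBD3, of which LBD3 could only be tested because it was high in stimulus. The share of all 21052 tested loci called higher was 6.03% at 6 h, 8.9% at 7 h, 6.54% at 8 h, 7.97% at 9 h and 9.74% at 10 h. None of the 9 was called lower at any hour, against 3.84%, 8.14%, 6.39%, 8.55% and 9.34% of all loci at 6, 7, 8, 9 and 10 h. In the average over the 5 times, with more libraries behind each value, 3 of 9 (LBD1, LBD4 and, with the same limit, LBD3) were called higher and 1 (LBD11) lower, where 29.7% of all loci were called higher and 27.0% lower. Only 5 of the 9 had enough counts to be tested, all 4 of the procambium class and LBD16.

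LBD11 was called lower at each hour once the replicate number was included as a block, with log2 fold changes from -0.83 ± 0.24 at 6 h (edgeR adjusted p = 0.0128) to -1.28 ± 0.25 at 10 h (edgeR adjusted p = 0.000438). In that fit 13.4% of all loci were called lower at 6 h, 18.4% at 7 h, 16.0% at 8 h, 18.0% at 9 h and 18.6% at 10 h. The block changed no call of the average for any of the 9 genes.

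**Figure D2:**
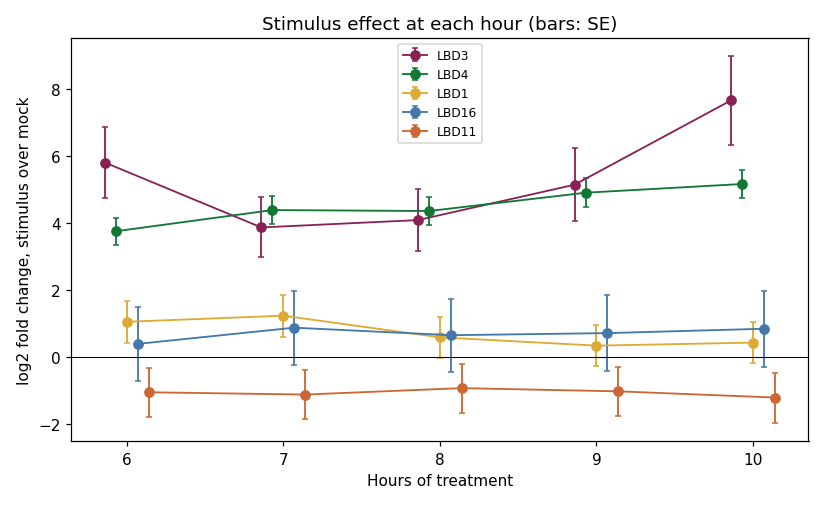
Log2 fold change, stimulus over mock, of the 5 tested LBD genes at each hour, with bars of 1 standard error from the fit of all libraries. LBD4 went from 3.75 at 6 h to 5.16 at 10 h, LBD11 stayed between -1.20 and -0.92, and the LBD3 values rest on 0 to 4 mock counts per hour.

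The levels of the classes were compared per length. Per kilobase of exon, the summed level of the lateral root and callus class was 0.764 ± 0.343 CPM per kb in mock (SD, n = 14) and 1.07 ± 0.738 in stimulus (SD, n = 15). The procambium class summed to 28.9 ± 13.3 CPM per kb in mock and 59.5 ± 9.94 in stimulus. The lowest procambium library, at 7.73 CPM per kb, was above the highest lateral root and callus library, at 2.30. The average log2 fold changes of the procambium genes ran from -1.06 for LBD11 through 0.73 for LBD1 and 4.51 for LBD4 to 5.31 for LBD3, and the median of all tested loci was 0.02. Of the other class only LBD16 was tested, and its 0.70 lay beside the value of LBD1, so a difference in response between the classes was not shown.

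The order of the genes changed with treatment. In mock, level per kb ran from LBD1 at 17.3 ± 9.71 and LBD11 at 10.5 ± 5.62, to LBD4 at 1.1 ± 0.301, LBD16 at 0.615 ± 0.316, LBD18 at 0.141 ± 0.109 and LBD3 at 0.0441 ± 0.0801 CPM per kb (SD, n = 14). The ranges of mean ± SD overlapped between LBD1 and LBD11, between LBD4 and LBD16 and between LBD18 and LBD3. Differences between these neighbours within libraries were not tested. LBD18 had counts in 12 of the 14 mock libraries and LBD3 in 4. In stimulus LBD4 moved next to LBD1, at 25.5 ± 9.68 against 27.5 ± 4.41 CPM per kb, which lay within their SDs. LBD11 followed at 4.84 ± 2.52, then LBD3 at 1.56 ± 0.681 and LBD16 at 0.981 ± 0.706, also within their SDs, and LBD18 at 0.0905 ± 0.0697 CPM per kb (SD, n = 15). LBD17, LBD29 and LBD33 were last in both treatments. The order in stimulus was not that of each replicate set. LBD4 in replicates 1 and 2 was at 30.3 ± 7.81 and LBD1 at 27.2 ± 3.42 CPM per kb (SD, n = 10), and in replicate 3 LBD4 was at 15.9 ± 4.11, below LBD1 at 28.2 ± 6.41 CPM per kb (SD, n = 5). LBD3 and LBD16 likewise changed places, at 1.18 ± 0.439 and 1.43 ± 0.313 CPM per kb in replicates 1 and 2 and at 2.30 ± 0.377 and 0.0798 ± 0.0375 CPM per kb in replicate 3.

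Markers of leaf cell types were measured in the same libraries. The 3 phloem markers SUC2, APL and SEOR1 summed to 57.8 to 113 CPM in mock and 135 to 207 CPM in stimulus. Of these SUC2, a sucrose transporter of companion cells, was called higher at 1.28 ± 0.09 (edgeR adjusted p = 7.20e-11), while APL, at 0.17 ± 0.13, and SEOR1, at 0.37 ± 0.18, were not called, and neither xylem marker was. The 5 mesophyll markers were lower in stimulus, as given above. The 2 xylem markers summed to 14.8 to 39.4 CPM in mock and 11.9 to 38.5 CPM in stimulus, and the highest values in both treatments were from replicate 3. The 3 guard cell markers were at 13.8 to 23.8 and 13.5 to 21.1 CPM, and the 2 epidermal markers at 53.4 to 107 and 33.2 to 96.2 CPM, in mock and stimulus. None of these cell type lists was at 0. Their part in the changes of the LBD genes was not tested.

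Between 6 and 10 h the mean of LBD4 in stimulus went from 19.0 ± 5.41 to 40.1 ± 13.6 CPM (SD, n = 3 each). Its trend in stimulus was 0.24 ± 0.08 log2 units per hour over all libraries, with an edgeR adjusted p of 0.174. None of the 9 genes passed for a trend in stimulus, in mock or for their difference, where 1.02%, 0.722% and 0.019% of all loci did. The test of a difference of the effect between hours called 0 of 21052 loci in edgeR, with 336 at an unadjusted p under 0.05, and 15 in DESeq2.

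Fits that took the replicate sets into account gave smaller errors for the same slopes. With the replicate block LBD4 rose in stimulus by 0.24 ± 0.05 per hour (edgeR adjusted p = 0.00645), against 3.75% of all loci that rose. LBD11 fell in that fit in stimulus, with a slope of -0.33 ± 0.06 (edgeR adjusted p = 0.000672), against 2.63% of loci, and in mock, with a slope of -0.23 ± 0.05 (edgeR adjusted p = 0.0143), against 1.89%. In that fit LBD11 thus also declined in leaves given no hormone, and the difference between the slopes, -0.10 ± 0.08 per hour, was not called.

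In replicates 1 and 2 alone the same slopes passed. LBD4 rose in stimulus by 0.24 ± 0.03 per hour (edgeR adjusted p = 3.13e-05), where 6.94% of loci rose, and LBD11 fell with a slope of -0.24 ± 0.04 (edgeR adjusted p = 0.000466), where 9.65% fell. In mock LBD1 rose by 0.19 ± 0.05 per hour (edgeR adjusted p = 0.00958), where 11.3% of loci rose, and LBD11 fell with a slope of -0.28 ± 0.04 (edgeR adjusted p = 3.06e-05), where 11.5% fell. The effect on LBD4 widened by 0.40 ± 0.07 per hour (edgeR adjusted p = 0.00142), where 3.25% of loci moved that way. The effect on LBD1 closed, with a slope of -0.29 ± 0.07 (edgeR adjusted p = 0.0141), where 4.46% moved that way, and its fitted log2 fold change ran from 0.68 ± 0.22 at 6 h to -0.25 ± 0.22 at 10 h. The interaction test, which asks for any difference between hours, called LBD4 alone of the 9 in this set (edgeR adjusted p = 0.0242), where it called 2.83% of loci.

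The average effects were then compared between the sets. In replicates 1 and 2 alone 4 of 9 genes were called higher and 1 lower, where 33.1% and 32.2% of loci were. In replicate 3 alone 3 were called higher and 1 lower, where 35.1% and 33.8% of loci were. Both counts of genes called higher include LBD3, which entered these tests only through its stimulus libraries. LBD4 had a log2 fold change of 4.78 ± 0.08 in replicates 1 and 2 and 3.83 ± 0.16 in replicate 3, and LBD11 -1.05 ± 0.07 and -1.09 ± 0.27. At 8 to 10 h, where replicate 3 has no identical column, LBD11 in replicate 3 was at -1.79 ± 0.23 (edgeR adjusted p = 6.54e-05), or 3.46-fold lower, and LBD1 at 2.50 ± 0.13. LBD3, the rarest of the 4 procambium transcripts in mock, had 3 mock and 183 stimulus counts in replicates 1 and 2 and 5 and 159 counts in replicate 3, with fitted values of 6.40 ± 0.57 and 4.33 ± 0.42. LBD1 had 0.32 ± 0.10 (edgeR adjusted p = 0.00758) in replicates 1 and 2 and 2.34 ± 0.11 (edgeR adjusted p = 8.71e-08) in replicate 3. The difference between the sets was not tested. Mesophyll markers summed to 13670 to 16280 CPM in the mock libraries of replicate 3 and 6797 to 9805 CPM in those of replicates 1 and 2, and their part in the LBD1 values was not tested.

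**Figure D3:**
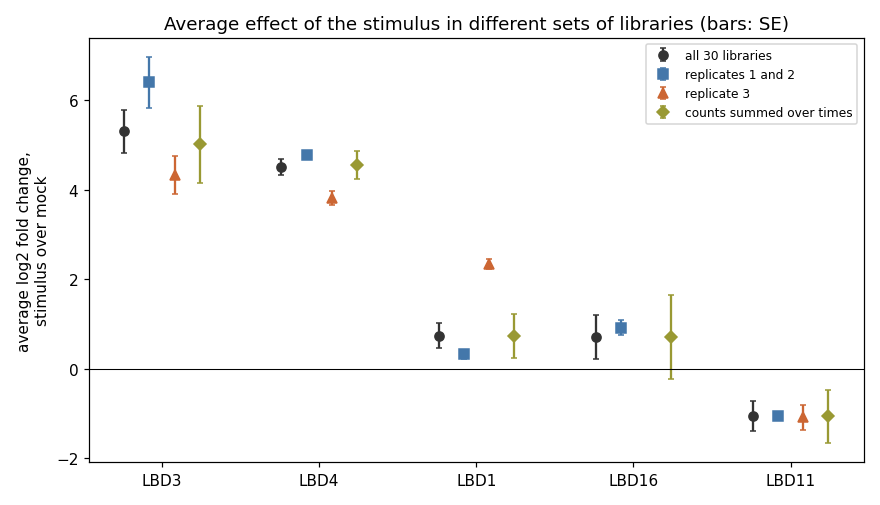
Average log2 fold change, stimulus over mock, of the tested LBD genes over all libraries, in replicates 1 and 2 and in replicate 3, with bars of 1 standard error. LBD11 was at -1.05 in replicates 1 and 2 and -1.09 in replicate 3, LBD1 was 0.32 in replicates 1 and 2 and 2.34 in replicate 3, and LBD16 has no value in replicate 3.

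The 5 hours of one replicate number were treated as separate libraries in these fits, so the p-values do not measure the spread between independent replicate sets. Nothing in the labels says that replicates came from separate batches of plants. With counts summed over the hours, 3 mock against 3 stimulus samples, 2 of 9 genes were called higher and 0 lower, where 4.56% and 3.65% of loci were. Of those 2, LBD3 again entered the test only through its stimulus samples. LBD4 was called at 4.56 ± 0.32 (edgeR adjusted p = 0.00317) and LBD3 at 5.02 ± 0.86 (edgeR adjusted p = 0.0264). LBD1, at 0.73 ± 0.49 (edgeR adjusted p = 0.370), and LBD11, at -1.07 ± 0.60 (edgeR adjusted p = 0.289), kept their size and lost the call. With the replicate block on these sums LBD11 was called at -1.05 ± 0.10 (edgeR adjusted p = 0.0171) and LBD1 was not.

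Of the other 34 LBD loci 10 were tested, and 4 were called higher and 2 lower in the average, with a median log2 fold change of -0.02. These shares of the tested genes, against 29.7% higher and 27.0% lower over all loci, do not set the family apart. LBD19 went from 10 counts in mock to 92 in stimulus, with a log2 fold change of 3.01 ± 0.79 (edgeR adjusted p = 0.00277). Like LBD3, it entered the test only through its stimulus libraries. LBD41, a hypoxia-responsive gene, rose by 1.19 ± 0.34 (edgeR adjusted p = 0.00491), and LBD38, a repressor in nitrogen responses, by 1.04 ± 0.39 (edgeR adjusted p = 0.0260). LBD39, its close relative, fell from 4.11 ± 4.64 to 0.478 ± 0.422 CPM, a log2 fold change of -3.24 ± 0.61 (edgeR adjusted p = 0.000102). AS2, which sets the upper side of the leaf, fell from 2.06 ± 0.463 to 1.09 ± 0.483 CPM. On summed counts none of these other family members was called, and LBD19 was not tested.

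Other genes of the lateral root and callus pathway were expressed in these leaves, and some changed. Of 18 listed genes 14 were tested, 8 were called higher and 2 lower, where 29.7% and 27.0% of all loci were, and the median log2 fold change was 0.50. ARF19, an activator of LBD16 and LBD29 in roots, rose from 8.41 ± 2.86 to 50.2 ± 27.3 CPM, a log2 fold change of 2.62 ± 0.35 (edgeR adjusted p = 1.56e-06). Its partner ARF7 had 52.9 ± 10.1 CPM in mock and 59.6 ± 4.14 CPM in stimulus and was not called (edgeR adjusted p = 0.0814). IAA14, the repressor of both, rose by 2.30 ± 0.15 (edgeR adjusted p = 1.82e-11). WOX11, which starts root founder cells in detached leaves, went from 11 to 108 counts, 3.63 ± 0.62 on the log2 scale (edgeR adjusted p = 6.02e-05). Like LBD3 and LBD19 it had few mock counts, so the fitted size depends on the prior count. It also entered the test, and the count of genes called higher, only through its stimulus libraries.

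Some genes placed downstream of LBD18 and LBD33 in roots were picked out after their values were seen, and those detected rose, where 29.7% of all loci did. LBD33 itself had no count and LBD18 was not called, and a part of either gene in these rises was not tested. EXPA14, an expansin activated by LBD18 in roots, rose by 1.52 ± 0.15 (edgeR adjusted p = 1.13e-08), and E2FA, the LBD18 and LBD33 target, by 0.66 ± 0.10 (edgeR adjusted p = 4.60e-06). EXPA17, another such expansin, had 0 counts, and PUCHI, an early lateral root primordium gene, had 1 count in each treatment. WOX5, a root stem cell niche gene, fell from 1.62 ± 0.754 to 0.457 ± 0.318 CPM, a log2 fold change of -1.75 ± 0.32 (edgeR adjusted p = 8.95e-05). Its value was -1.26 for replicates 1 and 2 and -3.88 for replicate 3. The sets also differed in size for ARF19, at 2.78 and 1.64, and for IAA14, at 2.61 and 1.49. LAX3, an auxin importer, was called lower at -0.88 ± 0.34 over all libraries (edgeR adjusted p = 0.0294), but had 0.18 in replicates 1 and 2 and -2.92 in replicate 3. On summed counts 4 genes of the list were called higher and 0 lower, where 4.56% and 3.65% of all loci were. ARF19 was not among those called (edgeR adjusted p = 0.0599), and WOX11 was not tested on these sums.

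The procambium list held the partners of LBD4 and other genes of vascular stem cells. Of 22 listed genes 20 were tested, 14 were called higher and 1 lower, where 29.7% and 27.0% of all loci were, and the median log2 fold change was 1.32. LOG3, an enzyme of cytokinin activation, went from 2.57 ± 1.63 to 104 ± 47.6 CPM, a log2 fold change of 5.40 ± 0.41 (edgeR adjusted p = 2.39e-10). AHP6, an inhibitor of cytokinin signalling in the vascular cylinder, went from 13 to 268 counts, 3.90 ± 0.35 on the log2 scale (edgeR adjusted p = 3.26e-09). AHP6 too had few mock counts and entered the test, and the count of genes called higher, only through its stimulus libraries. TMO6, a partner of LBD4, rose from 6.69 ± 1.12 to 63.8 ± 9.68 CPM, 3.24 ± 0.08 on the log2 scale (edgeR adjusted p = 2.14e-18). The other partner, WOX14, had 29 counts in mock and 17 in stimulus and was not tested. LHW, a partner of TMO5, fell by 0.22 ± 0.06 on the log2 scale (edgeR adjusted p = 0.00343). On summed counts 10 genes of the list were called higher and 0 lower, where 4.56% and 3.65% of all loci were. In replicates 1 and 2 alone 15 of 21 tested genes were called higher and 1 lower, where 33.1% and 32.2% of loci were. In replicate 3 alone 12 of 18 were called higher and 3 lower, where 35.1% and 33.8% were. WOX4, not called over all libraries at -0.22 ± 0.40, had 0.20 in replicates 1 and 2 and -3.03 in replicate 3.

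**Figure D4:**
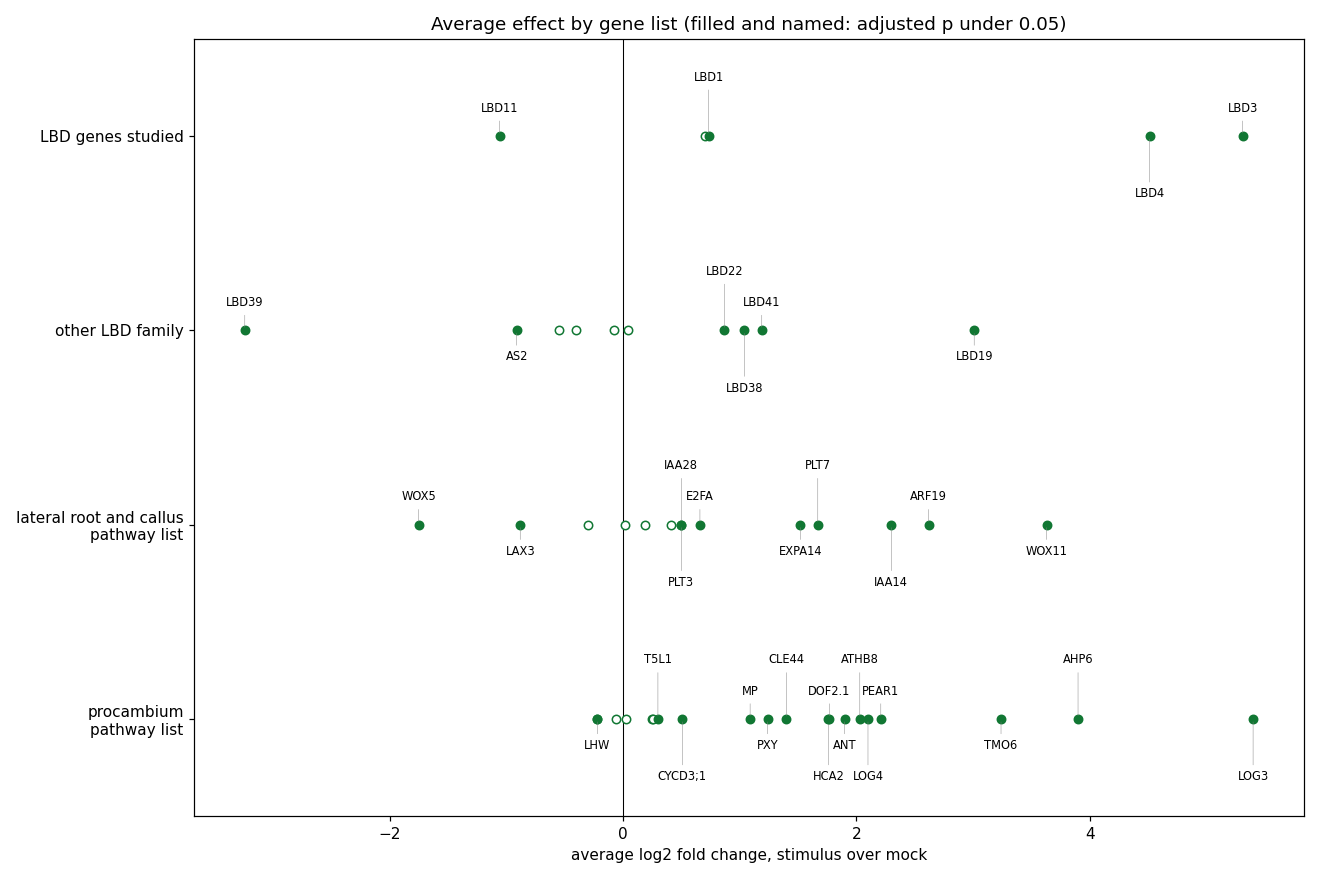
Average log2 fold change, stimulus over mock, of the tested LBD genes, the other LBD family members and both pathway lists, with 1 point per gene, filled and named where the edgeR adjusted p was under 0.05. LBD3 and LBD4 lie with LOG3 at the right, and LBD16 is the open point beside LBD1.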

How the data were processed

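RNA was sequenced from ribosomal RNA-depleted, stranded libraries. The authors deposited raw counts per locus; BWA and the TAIR10 build are named in the submitters' processing notes, and the counting tool is not given in the sources used here. The reference held here was TAIR10.1, so no coordinates or sequences are printed. It gave names (37751 of 38194 loci), exon lengths, and the neighbours and overlaps of loci. Loci were filtered with filterByExpr, scaled by TMM and fitted in edgeR 4.0.16 (R 4.3.3) with a quasi-likelihood model of 1 mean per group on all 30 columns. This left 21052 loci, over which p-values were adjusted by Benjamini-Hochberg (threshold 0.05). CPM used TMM library sizes. Alternatives were DESeq2 1.42.0, other filters and scalings, a replicate block, each library left out, replicate sets, summed counts and fewer hours. Fits were tested on simulated data. The members and lists were chosen with earlier results of these data known. All 9 members are named. From lists, up to 3 called genes each way were named by size of effect. Genes outside this rule (ARF7, EXPA14, EXPA17, E2FA, PUCHI, WOX4, WOX14) were chosen after their values were seen. Same-numbered mock and stimulus libraries deviated together in 15 of 15 pairs (correlation 0.158 to 0.486). However, for only 9 of 15 stimulus libraries was the same-numbered mock library the one that correlated most strongly. Whether equal numbers mark true pairs is therefore not known, and pairs were counted by label only. Blocked fits by replicate number were made as an alternative to the unblocked one. No member overlapped another annotated locus.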

Additional observations from a re-analysis of the deposited data

How the results depend on the processing

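No value changed direction while called. In the 30 fits that each left out 1 library, the average log2 fold change ranged from 0.64 to 0.86 for LBD1, from -1.14 to -0.96 for LBD11, from 0.54 to 0.82 for LBD16, from 5.19 to 5.95 for LBD3 and from 4.46 to 4.58 for LBD4, and no count of called members moved. Of 1798 values of single members under alternatives, 1767 kept their side of the threshold, 25 passed it newly, 6 no longer passed, and 26 uncalled values changed sign. On counts summed over times 0 members were called lower in the average. With the replicate block, and with replicates 1 and 2 only, 1 member (LBD11) was called lower at 6, 7, 8, 9 and 10 h, 1 had a falling trend in mock, and the trends in stimulus were 1 rising and 1 falling. Replicates 1 and 2 only also gave 3 members higher at 6 h, 4 at 7 h and 3 at 10 h, LBD3 among them each time. That set had 1 rise in mock, where 11.3% of loci rose, and 1 interaction, where 2.83% were called. It had 1 wider and 1 closing difference of trends, where 3.25% and 4.46% of loci moved that way. With only the 6 libraries of each time, 1 member was called higher at 8 h. Shares of all loci at single hours are not given for replicates 1 and 2 only or for the 6 libraries of each time. Their hourly counts stand without a background and are not a result about the members. In the average, replicates 1 and 2 alone called 33.1% of all loci higher, against 29.7% over all libraries. The cause of these shifts in called members was not tested. The replicate block changed no other call. LBD17, LBD29 and LBD33 had at most 2 counts per treatment, and a difference was not detectable at this depth.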

Other observations

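Among loci outside the LBD family, the profile of the 10 group means nearest to LBD4 was that of GA1, an enzyme of gibberellin synthesis, with a root mean square difference of 0.142 log2 units. The nearest to LBD1 was OCT5, a member of the organic cation transporter family, at 0.078, and the nearest to LBD11 were AT5G47330 at 0.108 and PRR3, a circadian clock gene, at 0.119. For LBD16 the nearest were AT3G49710 at 0.126 and AT1G14470 at 0.132. For LBD3 they were AT1G29500, a SAUR-like gene, at 0.225 and HAT2, an auxin-responsive homeobox gene, at 0.240, but a prior count of 0.5 in place of 2 kept 0 of these 2, and 1 of the 2 for LBD16, so these choices depend on that setting.

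Chromosome neighbours of LBD11, LBD16 and LBD17 were looked at as well. DOF2.1, next to LBD11, which fell, rose from 28.0 ± 6.23 to 94.0 ± 26.7 CPM, a log2 fold change of 1.77 ± 0.16 (edgeR adjusted p = 3.24e-09). The other neighbour of LBD11, AT2G28490, had 0 counts. AT2G42450, next to LBD17, fell by 0.39 ± 0.09 on the log2 scale (edgeR adjusted p = 0.000728), and AT2G42425, next to LBD16, had 0 counts in mock and 5 in stimulus.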
